A study of Mus musculus with 16 samples.

Results

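The transcripts of 10 neuromodulator receptors were followed in the striatum of 16 mice. They were the muscarinic acetylcholine receptors Chrm1, Chrm2 and Chrm3, the opioid receptors Oprm1, Oprd1 and Oprk1, the serotonin receptors Htr1b, Htr2c and Htr6, and the histamine receptor Hrh3. They were taken by gene name from the 24421 genes of the count files, and all 10 were among the 13563 genes that passed the filter on low counts. The mice were 13 months old, and 4 mice made up each of 4 groups. BACHD+Foxp2 and BACHD+Con mice carried BACHD, a large transgene with mutant human huntingtin on a bacterial artificial chromosome, used to model Huntington disease, and had received a Foxp2 virus or a control virus. Con+Foxp2 and Con+Con mice were of the control genotype and had received the same viruses. All 16 mice had therefore been injected with a virus. The sources used here do not give the virus type, its promoter and dose, the cells it reached or how long before harvest it was injected. Foxp2 is a forkhead transcription factor of striatal projection neurons, and the design asks what its overexpression changes in mice with and without mutant huntingtin.

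All 10 receptors span the membrane and act through G proteins. Receptors coupled to Gq, here Chrm1, Chrm3 and Htr2c, activate phospholipase C and raise calcium. Those coupled to Gi and Go, here Chrm2, Oprm1, Oprd1, Oprk1, Htr1b and Hrh3, lower cyclic AMP and calcium channel activity, and Htr6 couples to Gs and raises cyclic AMP. In the striatum these receptors tune the response of projection neurons to cortical and thalamic input and the release of acetylcholine, dopamine and GABA. Acetylcholine comes mainly from local interneurons, enkephalin and dynorphin from the projection neurons themselves, and serotonin and histamine from axons whose cell bodies lie outside the striatum.

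The libraries held 2660395 to 3669748 reads assigned to genes, with a median of 3014099.5. Levels are given as CPM, reads scaled to a common library total, which compares mice but not genes. The virus labels were checked with Foxp2 itself, which stood at 1595 ± 288 CPM in BACHD+Foxp2 mice and 119 ± 28.6 CPM in BACHD+Con mice, and at 4015 ± 431 CPM in Con+Foxp2 mice and 118 ± 26.7 CPM in Con+Con mice (SD, n = 4 each). Foxp2 was thus 2.52-fold lower in BACHD+Foxp2 than in Con+Foxp2 mice (log2 fold change -1.33, adjusted p = 9.64e-05 by edgeR). Where these 2 groups are compared, also within a genotype average or an interaction, genotype and Foxp2 level cannot be told apart. Markers of striatal projection neurons were present in every library, 7 of 7, with summed levels of 3072 to 6239.8 CPM and none at 0. Markers of neighbouring tissue varied far more between mice. The 9 cortical excitatory neuron markers summed to 146 to 1330 CPM and the 9 choroid plexus markers to 118 to 10816 CPM, with 7 libraries standing high in the choroid plexus markers (BACHD+Foxp2 mouse 3, BACHD+Con mouse 2, Con+Foxp2 mice 3 and 4, and Con+Con mice 1, 3 and 4). Fits without these 7 libraries keep only mouse 2 of the Con+Con group, so their Con+Con side rests on that mouse. Fits without the 3 libraries lowest in cortical markers keep only mice 1 and 4 of the BACHD+Con group. In bulk tissue, fewer cells of a type and less RNA per cell cannot be told apart.

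None of the 10 receptors passed the test in any comparison. The quasi-likelihood test of edgeR, adjusted over 13563 genes, called 0 of the 10 receptors at an adjusted p under 0.05 in each of 7 comparisons, and DESeq2 likewise called 0 in each. The virus effect (Foxp2 virus over control virus) was tested in BACHD mice, in control mice and averaged over both. The genotype effect (BACHD over control) was tested under the Foxp2 virus, under the control virus and averaged over both, and the seventh comparison was the interaction of both factors. In the same edgeR fit 0.243% of all genes were called for the Foxp2 virus in BACHD mice, 0.229% in control mice and 1.05% in the average. For BACHD the share was 0.059% under the Foxp2 virus, 0.0147% under the control virus and 0.0369% in the average, and for the interaction 0%. Of the 70 receptor tests, 4 had an unadjusted p under 0.05, which is 5.71%, against 5.87% over all genes. These 4 belonged to Chrm3, for the Foxp2 virus in BACHD mice and in the average, and to Oprd1, for BACHD under the control virus and in the average. Over all 70 tests the lowest adjusted p by edgeR was 0.27.

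The intervals of the differences show how much change the data leave room for. With 8 mice against 8, the 95% interval of edgeR's log2 fold change lay within 2-fold in either direction for 8 of 10 receptors for the Foxp2 virus and for 8 of 10 for BACHD. It lay within 1.5-fold for 3 of 10 receptors for the Foxp2 virus and for 2 of 10 for BACHD. With 4 mice against 4, the interval lay within 2-fold for 5 of 10 receptors for the Foxp2 virus in BACHD mice, for 5 in control mice, for 5 for BACHD under the Foxp2 virus and for 3 under the control virus. The median size of the log2 fold change over the 10 receptors was 0.17 for the Foxp2 virus, against 0.15 over all tested genes, and 0.26 for BACHD, against 0.12 over all tested genes. The genes were not matched for read level, and values from few reads scatter more, so these medians do not compare strength of response. For the averaged Foxp2 virus 1 of 10 receptors had an unadjusted p under 0.05 by edgeR, against 10.8% of all genes. For BACHD averaged it was 1 of 10, against 4.05%.

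**Figure D1:**
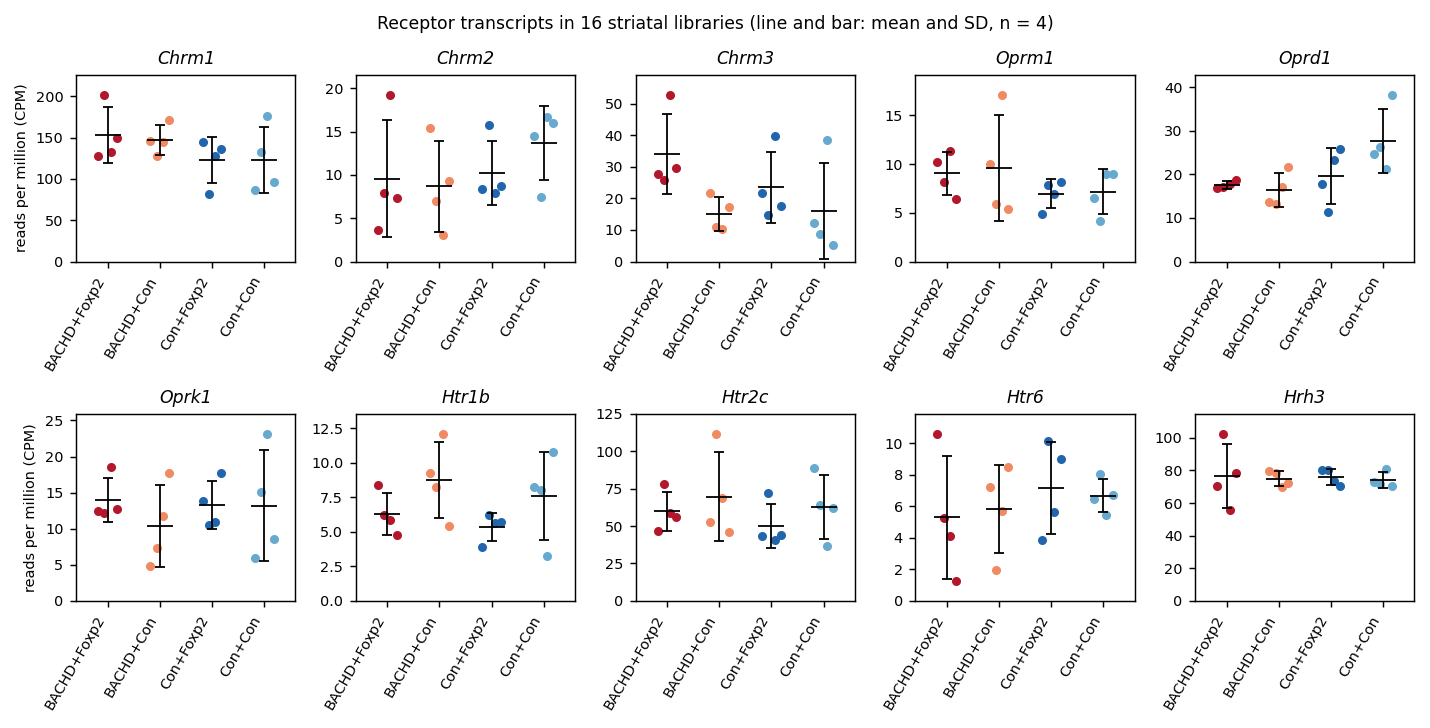
CPM of the 10 receptors (vertical axes from 0) in each library of the 4 groups, 1 point per mouse, with the mean and SD over 4 mice. The BACHD+Foxp2 and BACHD+Con points separate for Chrm3, at 25.9 to 53.0 and 10.4 to 21.7 CPM, and the groups overlap in the other panels for each virus and genotype comparison.

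Levels of different receptors were compared per length, as CPM divided by the kilobases of exon (RPKM). Hrh3 and Chrm1 were highest, at 24.0 ± 3.05 and 21.02 ± 4.82 RPKM (SD over 16 mice). Htr2c followed at 6.49 ± 2.14 RPKM, Oprd1 at 5.06 ± 1.63, Chrm3 at 3.55 ± 2.09 and Htr6 at 2.67 ± 1.14 RPKM. Chrm2 was at 1.74 ± 0.82 RPKM, Htr1b at 1.48 ± 0.52, Oprk1 at 1.39 ± 0.54 and Oprm1 at 1.02 ± 0.39 RPKM. Chrm1 and Htr2c were the 1 pair of neighbours in this order whose ranges did not overlap, Chrm1 being higher in 16 of 16 mice. Every other pair of neighbours overlapped, and the higher member led in 8 to 12 of 16 mice. The low level of Oprm1, Htr1b, Chrm2, Oprk1 and Htr6 meant few reads: in the median library Htr6 had 17.5 reads, Htr1b 20, Oprm1 24, Chrm2 25 and Oprk1 36.

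**Figure D2:**
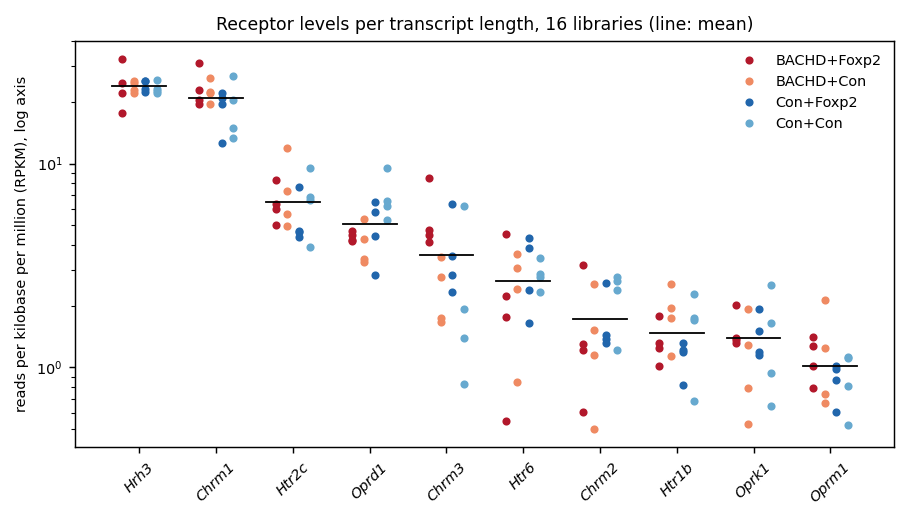
RPKM of the 10 receptors on a log axis, ordered by mean, with 1 point per library, the 4 groups side by side and a line at the mean over 16 libraries. Hrh3 and Chrm1, at means of 24.0 and 21.02 RPKM, stand above the others, and the lower 8 form a run of overlapping ranges.

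Because Foxp2 binds DNA through a forkhead domain, the 250 bases before the annotated start sites were read from RefSeq (GRCm38.p6) for 8 of the 10 receptors, in 11 windows. The forkhead motif TGTTTAC (or GTAAACA on the other strand) was in 0 of these 11 windows and in 3.17% of 32851 windows of the same length. Its core TGTTT (or AAACA), which the longer motif contains, was in 6 of 11 windows, of Chrm3, Htr1b, Htr2c, Htr6 and Oprm1, and in 46.4% of all windows. Windows are shown, for the receptor with the largest difference by virus, the receptor with the largest difference by genotype and the steadiest receptor. They are 5′ to 3′ on the gene's strand, and capitals mark the core motif. The Chrm3 window (chr13:10360804-10361053, minus strand) has 1 match and 61.2% G and C. The Oprd1 window (chr4:132144487-132144736, minus strand) and the Hrh3 window (chr2:180104408-180104657, minus strand) have no match, with 80% and 80.8% G and C. They hold 34 and 42 CG pairs, against 10 in the Chrm3 window and a median of 6 over all windows, whose median G and C share was 52.4%. A match is a description of the sequence and not a binding site.
Chrm3: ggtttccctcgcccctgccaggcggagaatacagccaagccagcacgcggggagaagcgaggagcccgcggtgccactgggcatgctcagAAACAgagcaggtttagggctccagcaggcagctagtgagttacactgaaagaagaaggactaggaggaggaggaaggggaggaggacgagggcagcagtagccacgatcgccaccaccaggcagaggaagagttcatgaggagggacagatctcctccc
Oprd1: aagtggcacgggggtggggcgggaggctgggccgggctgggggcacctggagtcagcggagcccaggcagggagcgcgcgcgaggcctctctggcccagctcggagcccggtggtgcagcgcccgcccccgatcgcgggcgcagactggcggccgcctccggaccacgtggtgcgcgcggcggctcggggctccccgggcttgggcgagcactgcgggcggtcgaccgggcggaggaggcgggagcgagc
Hrh3: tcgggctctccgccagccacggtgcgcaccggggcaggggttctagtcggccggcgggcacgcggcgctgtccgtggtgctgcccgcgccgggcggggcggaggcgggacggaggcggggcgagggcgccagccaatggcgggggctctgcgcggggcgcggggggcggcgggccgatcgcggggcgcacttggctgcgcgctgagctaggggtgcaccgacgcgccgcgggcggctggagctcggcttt

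The largest difference by virus belonged to a muscarinic receptor that nevertheless did not pass the test. Chrm3 (chromosome 13, 9875486 to 10360847, minus strand, GRCm38) encodes a receptor that binds acetylcholine and drives Gq. It stood at 27.8, 25.9, 53.0 and 29.7 CPM in BACHD+Foxp2 mice, against 21.7, 10.9, 10.4 and 17.3 CPM in BACHD+Con mice. Every BACHD mouse given the Foxp2 virus was above every BACHD mouse given the control virus. This was the 1 receptor and the 1 comparison in which the groups did not overlap. In that comparison 4.14% of all tested genes did not overlap. In the others 0 of 10 receptors separated, against 5.01% of genes for the virus in control mice, 0.339% for the virus averaged, 3% for BACHD under the Foxp2 virus, 2.43% under the control virus and 0.0369% averaged. The log2 fold change was 1.18 (SE 0.44, n = 4 each), with an unadjusted p of 0.0142 and an adjusted p of 0.487 by edgeR. It was 0.57 (unadjusted p = 0.101, adjusted p = 0.75 by edgeR) with the mean of cortical markers as a covariate. It was 0.80 (unadjusted p = 0.103, adjusted p = 0.888 by edgeR) without the 3 libraries lowest in cortical markers. Without the 7 libraries high in choroid plexus markers it was 0.74, in a fit that keeps only mouse 2 of Con+Con.

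In control mice Chrm3 was at 21.9, 14.7, 39.8 and 17.7 CPM with the Foxp2 virus, against 12.1, 8.69, 38.6 and 5.21 CPM with the control virus. The groups overlapped because Con+Con mouse 3 stood nearly as high as the highest Con+Foxp2 mouse. The log2 fold change was 0.53 (SE 0.44, adjusted p = 0.886 by edgeR), and it differed from that in BACHD mice by 0.64 (SE 0.62, adjusted p above 0.999 by edgeR in the interaction test). Single mice moved the value in control mice widely: it was 0.16 without Con+Foxp2 mouse 3 and 1.42 without Con+Con mouse 3 (unadjusted p = 0.00126, adjusted p = 0.132 by edgeR), the second above the value in BACHD mice.

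Averaged over genotypes, Chrm3 had a median of 26.8 CPM (14.7 to 53.0) with the Foxp2 virus, against 11.5 CPM (5.21 to 38.6) with the control virus. All 8 mice given the Foxp2 virus were above the median of the 8 mice given the control virus, though the groups overlapped. The log2 fold change was 0.86 (SE 0.31, 95% interval 0.21 to 1.503), 1.81-fold, with an unadjusted p of 0.0119 and an adjusted p of 0.27 by edgeR. Without Con+Con mouse 3 it was 1.30 with an adjusted p of 0.00753 by edgeR. That was the only one of 23 alternative settings in which a receptor was called for the averaged Foxp2 virus, and over all 23 the adjusted p ran from 0.00753 to 0.761 with the log2 fold change between 0.52 and 1.30. The authors' deposited table, made with DESeq2, lists Chrm3 with a log2 fold change of 0.68, a p-value of 0.000424 and an adjusted p of 0.0909 for the Foxp2 virus in BACHD mice. For the Foxp2 virus in control mice the authors' deposited table lists 0.14 with an adjusted p of 0.955. DESeq2 run here gave 1.18 in BACHD mice and 0.54 in control mice. For Foxp2 itself in BACHD mice the deposited value is 3.21, against 3.75 by edgeR here. The deposited sizes are smaller, so the 2 sets of sizes should not be compared directly.

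**Figure D3:**
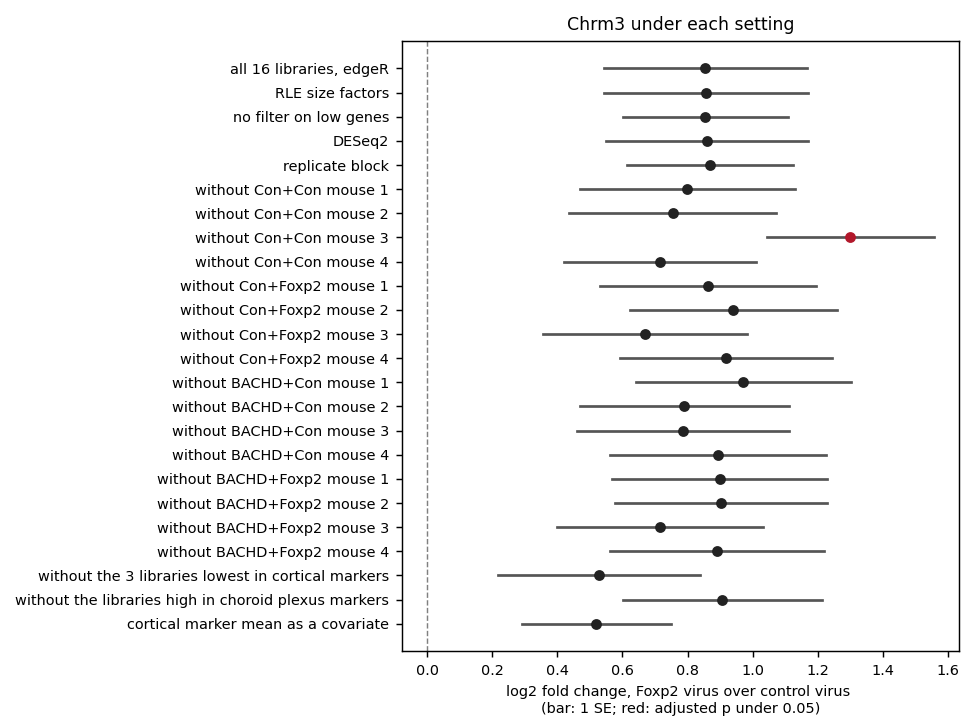
Log2 fold change of Chrm3 for the Foxp2 virus over the control virus, averaged over genotypes, with all 16 libraries and under 23 other settings (points; bars are 1 SE; red marks an adjusted p under 0.05). All points lie between 0.52 and 1.30, and the single red point is the fit without Con+Con mouse 3.

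Chrm3 varied with markers of cortical neurons and inversely with those of striatal projection neurons. Its level had a Pearson correlation of 0.80 (Spearman 0.75) with the mean of the 9 cortical excitatory neuron markers over the 16 libraries, and of 0.80 within groups. With the 4 markers of the striatal matrix (Calb1, Rasgrp2, Epha4 and Id4) the correlation was -0.87 (Spearman -0.84), and -0.88 without the 2 libraries farthest from the median of the matrix markers. The inverse relation was not particular to the matrix: it was -0.81 with indirect pathway, -0.75 with projection neuron and -0.63 with direct pathway markers. With striosome markers the correlation was 0.28, and -0.04 within groups. These are descriptions over libraries whose genes share depth and dissection, picked from 14 marker lists, and no test is attached. The 3 libraries highest in Chrm3, BACHD+Foxp2 mouse 3, Con+Foxp2 mouse 3 and Con+Con mouse 3, also had the 3 lowest mean log2(CPM + 1) values of the matrix markers, 6.56, 6.51 and 6.61. Con+Con mouse 3 also had the highest cortical marker sum of all libraries, 1330 CPM.

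The cortical markers themselves had mostly positive log2 fold changes for the Foxp2 virus, and none passed the test. Their sum was 553 to 1069 CPM in BACHD+Foxp2 mice and 146 to 1059 CPM in BACHD+Con mice, and 313 to 939 CPM in Con+Foxp2 mice and 218 to 1330 CPM in Con+Con mice. Of the 9 markers, 7 had a positive and 2 a negative log2 fold change for the Foxp2 virus averaged over genotypes, with a median of 0.55, and edgeR called 0 of 9. Of the 9, 1 was at 0 in at least 1 library and none was at 0 in every library. With the cortical marker mean as a covariate, the averaged log2 fold change of Chrm3 was 0.52 (SE 0.23, unadjusted p = 0.0311, adjusted p = 0.455 by edgeR), and without the 3 libraries lowest in cortical markers (BACHD+Con mice 2 and 3 and Con+Con mouse 4) it was 0.53 (adjusted p = 0.761 by edgeR).

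**Figure D4:**
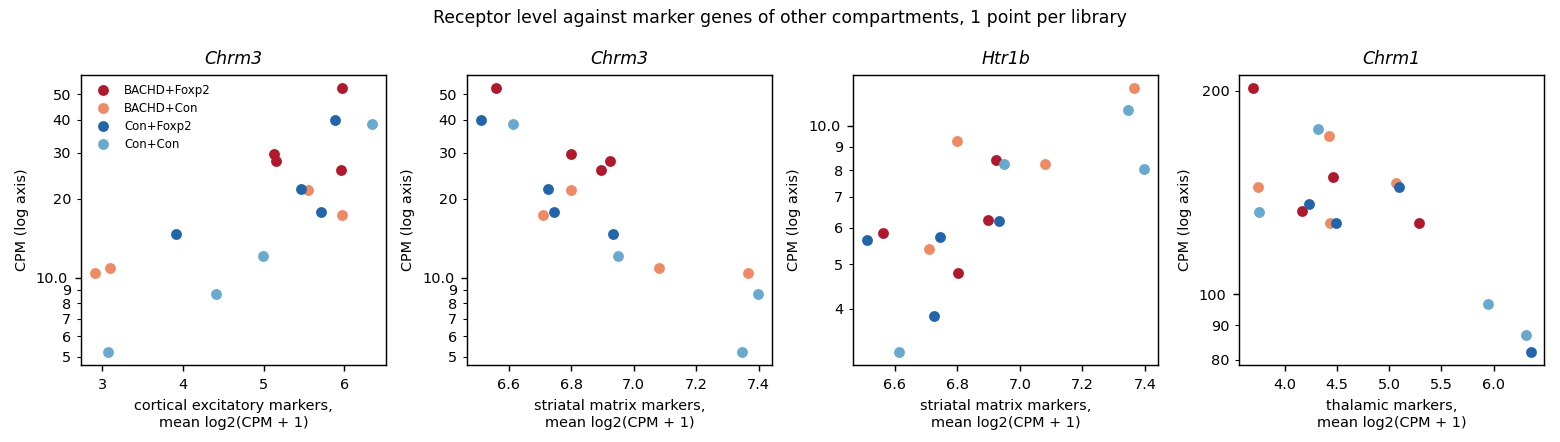
CPM of Chrm3, Htr1b and Chrm1 (log axes) against the mean log2(CPM + 1) of cortical, striatal matrix or thalamic markers, 1 point per library and coloured by group. Chrm3 climbs with cortical markers (Pearson 0.80) and descends with matrix markers (-0.87), Htr1b climbs with matrix markers (0.75), and the 3 libraries with thalamic means near 6 have the lowest Chrm1.

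Chrm1 (chromosome 19, 8663789 to 8683587, plus strand) encodes the main excitatory muscarinic receptor of both classes of projection neurons. It was at 128, 202, 133 and 149 CPM in BACHD+Foxp2 mice and 146, 127, 144 and 172 CPM in BACHD+Con mice, against 144, 82.1, 127 and 136 CPM in Con+Foxp2 mice and 87.0, 133, 176 and 96.7 CPM in Con+Con mice. The 3 lowest values all came from control mice, 1 with the Foxp2 virus and 2 with the control virus, and the genotypes overlapped. Averaged over viruses, the log2 fold change of BACHD over control mice was 0.29 (SE 0.14, n = 8 each, unadjusted p = 0.0504, adjusted p = 0.999 by edgeR). Leaving out single mice it ran from 0.21 to 0.40, the highest without Con+Con mouse 3 (unadjusted p = 0.00546, adjusted p = 0.865 by edgeR). DESeq2 gave 0.29 with an unadjusted p of 0.0486 and an adjusted p above 0.999. For the Foxp2 virus the averaged log2 fold change lay within 1 SE of 0, with a 95% interval of -0.27 to 0.31.

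The 3 libraries low in Chrm1 were those highest in the 4 thalamic markers (Slc17a6, Tcf7l2, Lef1 and Prkcd), with sums of 378 CPM in Con+Foxp2 mouse 2, 354 CPM in Con+Con mouse 1 and 256 CPM in Con+Con mouse 4. The other 13 libraries held 50.4 to 168 CPM. Over 16 libraries the Pearson correlation of Chrm1 with the thalamic marker mean was -0.81 (Spearman -0.61), and -0.59 without the 2 farthest libraries. With the cortical marker mean it was 0.52 (Spearman 0.59), and 0.58 without the 2 farthest. Within groups it was -0.77 with astrocyte and -0.69 with oligodendrocyte markers. With projection neuron, direct pathway and indirect pathway markers it was -0.21, 0.02 and -0.28 over the 16 libraries. The thalamic markers summed to 50.4 to 168 CPM in BACHD+Foxp2 mice and 60.1 to 140 CPM in BACHD+Con mice, and to 78.1 to 378 CPM in Con+Foxp2 mice and 76.9 to 354 CPM in Con+Con mice. Their part in the Chrm1 difference was not tested.

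Chrm2 (chromosome 6, 36388084 to 36528414, plus strand), the inhibitory autoreceptor of cholinergic interneurons, was scarce, with 9 to 56 reads per library. It overlaps 9330158H04Rik on the opposite strand, which had 0 to 11 reads, and their reads cannot be told apart with certainty. It averaged 9.53 ± 6.76 CPM in BACHD+Foxp2 mice, 8.67 ± 5.21 CPM in BACHD+Con mice, 10.2 ± 3.69 CPM in Con+Foxp2 mice and 13.6 ± 4.27 CPM in Con+Con mice. The groups overlapped in all pairs compared. The averaged log2 fold change for BACHD was -0.37 (SE 0.33) and that under the control virus -0.65 (SE 0.47), both with an adjusted p of 0.999 or more by edgeR. Leaving out single mice, the value under the control virus ran from -1.10 (without BACHD+Con mouse 1, unadjusted p = 0.0393) to -0.38 (without BACHD+Con mouse 3), and the averaged value from -0.67 (without BACHD+Foxp2 mouse 3) to -0.23 (without Con+Foxp2 mouse 2). Under the control virus it was -0.05 (SE 0.54) without the 3 libraries lowest in cortical markers. It was 0.33 without the 7 high in choroid plexus markers, a fit that keeps only mouse 2 of Con+Con. The 95% interval for the Foxp2 virus, averaged, was -0.82 to 0.54. Chrm2 varied between mice by a coefficient of variation of 48.7% (within groups), where counting error alone gives 17.8%.

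Among the 5 genes that make, move or break down acetylcholine, the ligand of these receptors, 2 were called for the averaged Foxp2 virus. Chat, which makes acetylcholine, averaged 6.52 ± 3.44 CPM with the Foxp2 virus and 16.8 ± 5.48 CPM with the control virus (SD, n = 8 each; log2 fold change -1.44, adjusted p = 0.00336 by edgeR). Slc5a7, the choline transporter, averaged 8.42 ± 6.997 CPM with the Foxp2 virus and 26.5 ± 12.4 CPM with the control virus (-1.66, adjusted p = 0.0424 by edgeR). Both fell. Chat was called in 21 of 23 alternative settings. The exceptions were without the 3 libraries lowest in cortical markers (log2 fold change -1.14, adjusted p = 0.148 by edgeR) and without the 7 high in choroid plexus markers (-1.43). The second of these fits keeps only mouse 2 of Con+Con. Slc5a7 was called in 9 of 23, and its log2 fold change ran from -2.18 to -1.26 over the 23. Markers of cholinergic interneurons as a group, which include both genes, had negative values for 6 of 6 (median -1.48). Of these, 3 of 6 were called, where 1.05% of all genes were. Values were also negative for 7 of 7 projection neuron (median -0.38, 1 called), 7 of 7 direct pathway (-0.46), 6 of 6 indirect pathway (-0.39) and 6 of 6 GABAergic interneuron markers (-0.27). Of the astrocyte markers 3 of 7 were called higher, and of the microglia markers 1 of 6. Summed, the cholinergic markers stood at 18.8 to 53.8 CPM in BACHD+Foxp2 mice and 50.9 to 96.4 CPM in BACHD+Con mice, and at 17.2 to 46.5 CPM in Con+Foxp2 mice and 42.1 to 105 CPM in Con+Con mice. Chrm3 correlated with the mean of the cholinergic markers at -0.76 over 16 libraries and at -0.66 within groups. Chrm4, the Gi-coupled muscarinic receptor of direct pathway neurons, averaged 40.8 ± 9.15 CPM with the Foxp2 virus and 51.8 ± 6.83 CPM with the control virus (-0.34, adjusted p = 0.358 by edgeR), and Chrm5 had 0 to 14 reads and was not tested.

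The opioid receptors were low to moderate. Oprd1 (chromosome 4, 132110726 to 132144486, minus strand) encodes the delta receptor, which binds enkephalin. It was at 13.7, 13.2, 17.1 and 21.6 CPM in BACHD+Con mice, against 24.8, 26.4, 21.2 and 38.3 CPM in Con+Con mice. The lowest Con+Con mouse lay just below the highest BACHD+Con mouse, so the groups overlapped, by a single pair of mice. The log2 fold change was -0.75 (SE 0.26, n = 4 each), 1.68-fold lower, with an unadjusted p of 0.00929 and an adjusted p above 0.999 by edgeR. The authors' deposited table, made with DESeq2, lists -0.41 for this comparison, with a p-value of 0.0102 and an adjusted p above 0.999. DESeq2 run here gave -0.76, and the deposited sizes are smaller for Chrm3 and Foxp2 as well.

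Under the Foxp2 virus Oprd1 was at 16.8, 17.0, 17.9 and 18.8 CPM in BACHD mice, against 17.7, 11.5, 23.2 and 25.9 CPM in control mice. The BACHD mice fell inside the range of the control mice, and the 95% interval of the log2 fold change was -0.70 to 0.40. Averaged over viruses, Oprd1 had a median of 17.1 CPM (13.2 to 21.6) in BACHD mice and 24.0 CPM (11.5 to 38.3) in control mice, with 0 of 8 BACHD mice above the control median. The averaged log2 fold change was -0.45 (SE 0.19, 95% interval -0.84 to -0.06, unadjusted p = 0.0241, adjusted p = 0.999 by edgeR). In control mice the Foxp2 virus went with a log2 fold change of -0.49 (SE 0.26, unadjusted p = 0.0716, adjusted p = 0.767 by edgeR), or -0.65 to -0.30 leaving out single mice, and the interaction was 0.60 (SE 0.37, unadjusted p = 0.123). Leaving out the 7 libraries high in choroid plexus markers keeps only mouse 2 of Con+Con. The log2 fold change for BACHD was then -0.16 averaged, -0.59 under the control virus and 0.27 under the Foxp2 virus. Without the 3 libraries lowest in cortical markers it was -0.30 averaged and -0.45 under the control virus. Over all 16 libraries the Pearson correlation of Oprd1 with the 14 marker means was at most 0.32 in size, that with choroid plexus markers. Without the 2 libraries farthest from each median it was 0.53 with choroid plexus, -0.53 with indirect pathway and -0.52 with endothelial markers.

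Oprk1 (chromosome 1, 5588466 to 5606131, plus strand) encodes the kappa receptor, which binds dynorphin and is found on dopamine axons, whose cell bodies lie outside the striatum, as well as on striatal cells. It was at 12.4, 12.1, 18.6 and 12.8 CPM in BACHD+Foxp2 mice, against 4.81, 7.27, 11.8 and 17.7 CPM in BACHD+Con mice, and at 13.8, 10.5, 10.9 and 17.7 CPM in Con+Foxp2 mice, against 5.90, 15.1, 23.1 and 8.56 CPM in Con+Con mice. The control-virus mice were the more scattered in both genotypes, and the groups overlapped. Averaged, 8 of 8 mice given the Foxp2 virus were above the control-virus median of 10.2 CPM, but the log2 fold change lay within 1 SE of 0 (95% interval -0.36 to 0.81). The spread was wider with the control virus, 11.8 ± 6.43 CPM, where the Foxp2 virus gave 13.6 ± 3.00 CPM; the difference in spread was not tested.

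Oprm1 (chromosome 10, 6758506 to 7038198, plus strand), the mu receptor that marks the striosomes, had 13 to 51 reads per library. It averaged 9.04 ± 2.21 CPM in BACHD+Foxp2 mice, 9.61 ± 5.41 CPM in BACHD+Con mice, 6.96 ± 1.51 CPM in Con+Foxp2 mice and 7.15 ± 2.30 CPM in Con+Con mice. The highest value, 17.1 CPM, came from BACHD+Con mouse 3. The averaged log2 fold change for BACHD was 0.40 (SE 0.29, unadjusted p = 0.178, adjusted p = 0.999 by edgeR), and without BACHD+Con mouse 3 it was 0.18. Oprm1 overlaps Ipcef1, a gene on the opposite strand with 36 to 463 reads per library, and whether the counting used strand is not given, so reads of the 2 genes cannot be told apart with certainty.

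Among the ligands, 0 of 4 opioid peptide precursor genes passed the test in any comparison. The lowest p belonged to Pdyn, the dynorphin precursor, at 82.9 ± 27.6 CPM in BACHD mice and 52.2 ± 12.4 CPM in control mice (log2 fold change 0.67, adjusted p = 0.626 by edgeR). Oprl1, the nociceptin receptor, averaged 21.3 ± 6.68 CPM with the Foxp2 virus and 17.5 ± 5.23 CPM with the control virus (0.27, adjusted p = 0.721 by edgeR).

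Of the serotonin receptors, Htr1b (chromosome 9, 81628291 to 81633828, minus strand) encodes a Gi-coupled receptor carried to the axon terminals of projection neurons. It was at 8.41, 6.22, 5.85 and 4.78 CPM in BACHD+Foxp2 mice, against 9.28, 8.26, 12.1 and 5.40 CPM in BACHD+Con mice. In control mice it was at 3.86, 6.22, 5.64 and 5.73 CPM with the Foxp2 virus, against 8.26, 8.04, 3.21 and 10.8 CPM with the control virus. The groups overlapped in both genotypes. In BACHD mice, BACHD+Con mouse 4 lay among the mice given the Foxp2 virus. BACHD+Foxp2 mouse 1, at 8.41 CPM, was also above BACHD+Con mouse 2, at 8.26 CPM. In control mice the overlap came through Con+Con mouse 3. The averaged log2 fold change was -0.48 (SE 0.29, unadjusted p = 0.115, adjusted p = 0.596 by edgeR), and 1 of 8 mice given the Foxp2 virus was above the control-virus median of 8.26 CPM. With 10 to 36 reads per library, counting error alone gives a coefficient of variation of 21.9%, where the measured one within groups was 32.7%. Htr1b overlaps D430036J16Rik on the opposite strand, which had 4 to 32 reads, and reads of the 2 genes cannot be told apart with certainty either.

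Htr1b ran opposite to Chrm3 across the mice. The Pearson correlation between them was -0.65 over 16 libraries, and -0.69 within groups, the lowest of the 45 pairs of receptors. Htr1b correlated with the matrix marker mean at 0.75 (Spearman 0.72) and with the cortical marker mean at -0.71 (Spearman -0.66), the reverse of the signs seen for Chrm3. Its correlation was also 0.69 with cholinergic interneuron, 0.64 with indirect pathway, 0.63 with projection neuron and 0.59 with direct pathway markers. All 4 matrix markers had a negative log2 fold change for the averaged Foxp2 virus, with a median of -0.28, and edgeR called 0 of 4. With the cortical marker mean as a covariate, the averaged log2 fold change of Htr1b for the Foxp2 virus was -0.21 (SE 0.33, unadjusted p = 0.538, adjusted p = 0.917 by edgeR). It was -0.25 (SE 0.37) without the 3 libraries lowest in cortical markers and -0.58 (SE 0.46) without the 7 high in choroid plexus markers. The matrix markers were not fitted as a covariate.

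Htr2c (chromosome X, 146962513 to 147197277, plus strand) encodes a Gq-coupled receptor that is abundant in the choroid plexus as well as in neurons. It was at 46.8, 77.9, 58.8 and 55.8 CPM in BACHD+Foxp2 mice, against 52.9, 112, 68.5 and 45.9 CPM in BACHD+Con mice, and at 43.1, 72.0, 40.8 and 43.7 CPM in Con+Foxp2 mice, against 88.8, 64.3, 36.3 and 61.8 CPM in Con+Con mice. The groups overlapped throughout. The 2 highest values, 112 CPM in BACHD+Con mouse 2 and 88.8 CPM in Con+Con mouse 1, came from the 2 libraries with the highest choroid plexus marker sums, 10816 and 7631 CPM. The other 5 libraries high in choroid plexus markers had 36.3 to 61.8 CPM of Htr2c. Over all 16 libraries the Pearson correlation of Htr2c with the choroid plexus mean was 0.25 (Spearman 0.18), and -0.32 without the 2 farthest libraries. Larger in size were those with the cortical marker mean, -0.63 (-0.72 without the 2 farthest), and with the matrix marker mean, 0.56 (Spearman 0.74). The averaged log2 fold change was -0.28 (SE 0.19, adjusted p = 0.654 by edgeR) for the Foxp2 virus. It was -0.12 without BACHD+Con mouse 2 alone. It was -0.03 in each of 3 other settings, without the 7 libraries high in choroid plexus markers, without the 3 lowest in cortical markers, and with the cortical marker mean as a covariate. For BACHD the averaged log2 fold change was 0.21 (SE 0.19), 0.05 without BACHD+Con mouse 2 and -0.06 without the 7 libraries high in choroid plexus markers.

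Htr6 (chromosome 4, 139061108 to 139075570, minus strand), a Gs-coupled receptor of projection neurons, had 4 to 33 reads per library. It averaged 5.31 ± 3.90 CPM in BACHD+Foxp2 mice, 5.85 ± 2.81 CPM in BACHD+Con mice, 7.16 ± 2.92 CPM in Con+Foxp2 mice and 6.67 ± 1.06 CPM in Con+Con mice. All groups overlapped, and all 7 log2 fold changes lay within 1 SE of 0. The 95% interval was -0.79 to 0.76 for the Foxp2 virus and -1.10 to 0.46 for BACHD. Of 8 other serotonin receptors tested, 0 were called in any comparison, the lowest p being that of Htr1f, at 11.3 ± 3.93 CPM with the Foxp2 virus and 6.84 ± 2.66 CPM with the control virus (0.71, adjusted p = 0.35 by edgeR).

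Hrh3 (chromosome 2, 180099465 to 180104488, minus strand), the Gi-coupled histamine receptor that restrains transmitter release, was the steadiest of the 10. It was at 70.2, 102, 55.7 and 78.1 CPM in BACHD+Foxp2 mice, 79.7, 78.3, 69.8 and 72.1 CPM in BACHD+Con mice, 80.5, 80.2, 73.3 and 70.4 CPM in Con+Foxp2 mice, and 73.2, 71.4, 81.0 and 70.3 CPM in Con+Con mice. All groups overlapped, and both extremes lay in BACHD+Foxp2 mice. The mean was 76.6 ± 19.5 CPM in BACHD+Foxp2 mice, 75.0 ± 4.77 CPM in BACHD+Con mice, 76.1 ± 5.04 CPM in Con+Foxp2 mice and 74.0 ± 4.83 CPM in Con+Con mice. The highest library exceeded the lowest by 1.84 times. The 95% interval of the averaged log2 fold change was -0.19 to 0.26 for the Foxp2 virus and -0.21 to 0.24 for BACHD, which is within 1.5-fold. Hrh3 correlated with the mean of oligodendrocyte markers at -0.68, and at -0.30 without the 2 farthest libraries. Of the 2 other histamine receptors tested, Hrh1 and Hrh2, 0 were called, and Hrh2 averaged 3.05 ± 1.33 CPM with the Foxp2 virus and 5.13 ± 1.44 CPM with the control virus (-0.73, adjusted p = 0.52 by edgeR).

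**Figure D5:**
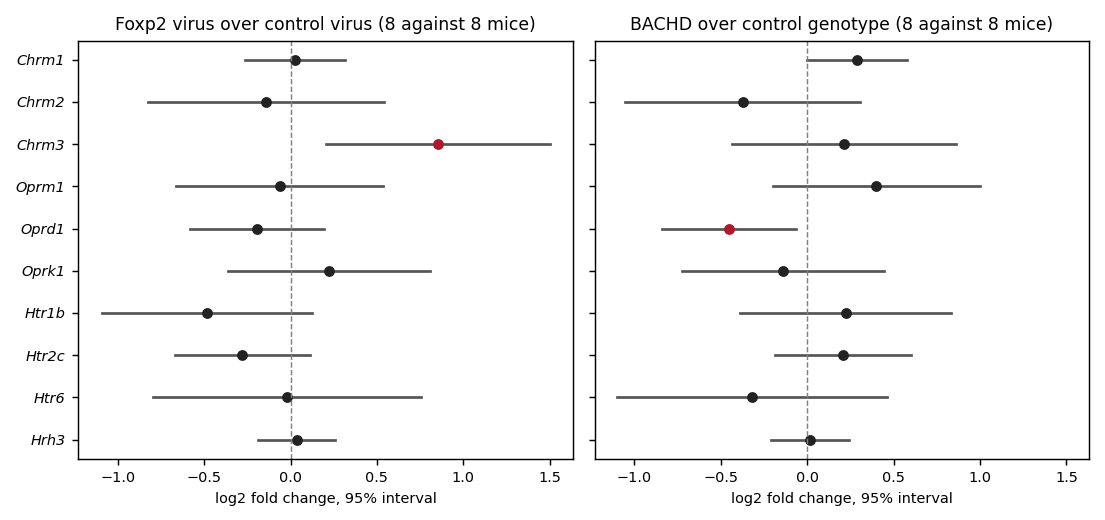
Log2 fold changes (points) with 95% intervals (lines) of the 10 receptors for the Foxp2 virus over the control virus and for BACHD over control mice, 8 against 8 mice each. The interval lies to 1 side of 0 for Chrm3 in the first panel (0.21 to 1.503) and for Oprd1 in the second (-0.84 to -0.06), shown in red, and neither passed adjustment over 13563 genes; Hrh3 has the narrowest intervals.

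The signalling partners were counted in the same way. Of 83 genes fixed in lists of related receptors, ligands, synthesis and transport enzymes and G-protein signalling, 68 were tested, and Chat and Slc5a7 were the 2 called for the averaged Foxp2 virus, where 1.05% of all genes were called. Chat was the 1 gene called for the Foxp2 virus in BACHD mice (log2 fold change -2.13, adjusted p = 0.00845 by edgeR), and 0 of 68 were called in the other 5 comparisons. That call held in 13 of 16 alternative settings. It was lost without BACHD+Con mouse 3 (-1.92, adjusted p = 0.0698 by edgeR) and without the 3 libraries lowest in cortical markers (-1.72, adjusted p = 0.313 by edgeR). It was also lost without the 7 high in choroid plexus markers (-2.11), a fit that keeps only mouse 2 of Con+Con. The 10 Gq signalling genes had a median log2 fold change of 0.09 for the averaged Foxp2 virus, the 10 tested Gi and Go genes 0.06 and the 8 Gs and Golf genes -0.14, against 0.00 over all genes. Closest to the threshold was Adcy5, the adenylyl cyclase of projection neurons, at 601 ± 87.2 CPM with the Foxp2 virus and 832 ± 214 CPM with the control virus (-0.47, adjusted p = 0.0895 by edgeR). Drd2, the dopamine receptor of indirect pathway neurons, averaged 75.8 ± 13.2 CPM with the Foxp2 virus and 98.6 ± 25.2 CPM with the control virus (-0.38, adjusted p = 0.314 by edgeR). Adra2c, an adrenergic receptor, averaged 30.5 ± 9.06 CPM in BACHD mice and 20.997 ± 7.83 CPM in control mice (0.57, adjusted p = 0.999 by edgeR). Plcb4, a phospholipase C driven by Gq, averaged 97.8 ± 24.2 CPM in BACHD mice and 132 ± 30.2 CPM in control mice (-0.43, adjusted p = 0.999 by edgeR). Slc18a2, the vesicular monoamine transporter, averaged 12.3 ± 3.41 CPM with the Foxp2 virus and 7.32 ± 3.19 CPM with the control virus (0.74, adjusted p = 0.282 by edgeR), and Rgs4, which ends G-protein signals, 288 ± 23.6 CPM with the Foxp2 virus and 335 ± 61.8 CPM with the control virus (-0.21, adjusted p = 0.378 by edgeR).

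Each receptor was also set against the 10374 or 10375 other genes whose mean log2 CPM was 3 or more, by Pearson correlation over the 16 libraries. The likest gene to Chrm1 was Arhgap32 (0.90), to Chrm2 Synm (0.80), to Chrm3 Trhde (0.90), to Oprm1 Klf15 (0.79) and to Oprd1 Rpp14 (0.76). To Oprk1 it was Pcnxl2 (0.80), to Htr1b Limch1 (0.86), to Htr2c Tgs1 (0.84), to Htr6 Abhd3 (0.84) and to Hrh3 Ccdc184 (0.82). These values describe 16 shared libraries and carry no test. Between receptors, the highest correlation was that of Htr1b with Htr2c (0.56), followed by Chrm1 with Oprk1 (0.47) and Chrm1 with Chrm3 (0.46).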

How the data were processed

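Striatal RNA of 16 mice was sequenced. Libraries were made by SMARTer chemistry, per the labels' protocols. The authors deposited whole-number read counts per gene for each mouse, not normalized. STAR 2.4.0, HTSeq, DESeq2 and the build mm10 (GRCm38) are named in the submitters' processing notes, without the strand setting of the counting. Reads not assigned to genes, 75.3% to 77.5% of those listed, did not enter library sizes or tests. The authors also deposited tables of their comparisons with a log2 fold change and a p-value per gene, used only for comparison.

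Counts were fitted in edgeR 4.0.16 under R 4.3.3 (quasi-likelihood test, TMM scaling, filterByExpr, 1 mean per group, 12 residual degrees of freedom, two-sided, Benjamini-Hochberg adjustment over 13563 genes, called at an adjusted p under 0.05). Tests were also run on simulated counts with changes set by virus only, and not in the scarcest genes. That run cannot show how well changes by genotype, interactions or changes in the scarcest receptors are found. CPM use the scaled library sizes and RPKM divide them by the merged exon length of GENCODE M21, whose coordinates are given. Marker means are means of log2(CPM + 1), and likeness used log2 CPM with a prior count of 2. Of the 24421 gene names, 23376 were found in GENCODE M21. Genes named beyond the 10 receptors were those called in a list of related genes, the genes of lowest p in a list in the averaged comparisons, and the most alike gene of each receptor. Fold changes within 1 SE of 0 are given by their intervals or counted. The 95% intervals and p-values come from the same edgeR fit and include the spread between mice. The counting coefficients of variation cover counting error only, since reads carry no molecular identifiers. The labels name no batch. The receptors, the lists and the settings were chosen with earlier results of these data known, and the settings based on cortical and choroid plexus markers were added after these data were seen. Alternatives were DESeq2 1.42.0, other size factors, no filter on low genes, a fit of only the groups compared, the replicate number as a block and leaving out each library.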

Additional observations from a re-analysis of the deposited data

Results flagged for a closer look

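In 4 of 40 sets of 4 mice (10 receptors in 4 groups), the highest mouse stood apart from the other 3 by 0.86 to 0.907 of the group's range. For independent sets chance gives such a gap, at either end, in about 1 of 20. The 40 sets come from the same 16 libraries and are not independent, so their number cannot be set against that rate. Chrm3 was at 53 CPM in BACHD+Foxp2 mouse 3, against 25.9 to 29.7 CPM in the other 3 mice of that group, and Oprk1 was at 18.6 CPM in the same mouse, against 12.1 to 12.8 CPM. BACHD+Foxp2 mouse 3 was the library of its group with high choroid plexus markers, 5097 CPM in sum, against 169 to 420 CPM in the other 3. Over all 16 libraries the Pearson correlation with the choroid plexus marker mean was -0.003 for Chrm3 and -0.10 for Oprk1. Within groups it was 0.20 and -0.12, and without the 2 farthest libraries 0.25 and 0.34. Chrm2 was at 15.7 CPM in Con+Foxp2 mouse 2, against 7.96 to 8.74 CPM in the other 3 mice of that group, and Htr2c was at 72 CPM in the same mouse, against 40.8 to 43.7 CPM. Con+Foxp2 mouse 2 had the highest thalamic marker sum of all 16 libraries, 378 CPM, and the lowest cortical marker sum of its group, 313 CPM. Whether these markers bear on the receptor values was not tested.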

How the results depend on the processing

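The 10 receptors stayed uncalled under every alternative run, with 1 exception, Chrm3 for the averaged Foxp2 virus without Con+Con mouse 3, so that leaving out single mice gave 0 to 1 receptors there. Of 461 alternative values of the 24 log2 fold changes that exceeded 1 SE, 454 kept their direction and their side of the threshold. The others that turned were Chrm2 for BACHD under the control virus (0.33 without the 7 libraries high in choroid plexus markers), the Chrm3 interaction (-0.33 without them, and -0.24 to 1.03 leaving out single mice), Oprm1 for BACHD under the control virus (-0.01 to 0.62 leaving out single mice) and Htr2c for BACHD averaged (-0.06 without the 7 libraries and -0.04 without the 3 libraries with the lowest cortical marker means). The fit without the 7 libraries keeps only mouse 2 of Con+Con. Of the 46 log2 fold changes within 1 SE, 141 of 869 alternative values had the other sign.

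Counts over all genes moved more. For the Foxp2 virus in BACHD mice 33 genes were called, with 53 without a filter on low genes, 66 by DESeq2, 19 from only the groups compared, 6 without the 3 libraries lowest in cortical markers, 12 without the 7 libraries high in choroid plexus markers and 9 to 26 leaving out single mice. In control mice 31 were called, with 75 unfiltered, 87 by DESeq2, 6 without the 7 libraries, 54 with the cortical marker mean as a covariate and 10 to 46 leaving out single mice. Averaged over genotypes 143 were called, with 249 by DESeq2, 61 without the 3 libraries and 42 without the 7. For BACHD under the Foxp2 virus 8 were called, with 15 by DESeq2, 13 with the covariate and 4 to 8 leaving out single mice. Under the control virus 2 were called, with 1 without the 3 libraries, 1 without the 7 and 1 to 2 leaving out single mice. For BACHD averaged 5 were called, with 8 unfiltered and 8 by DESeq2. For the interaction 0 were called, with 3 unfiltered, 4 by DESeq2, 2 with the covariate and 0 to 1 leaving out single mice. Groups are smaller in fits that leave libraries out, and the fit without the 7 keeps only mouse 2 of Con+Con. The cause of these shifts was not tested.

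The replicate numbers showed no sign of pairing the mice: the deviations of 24 same-numbered pairs correlated at -0.17 to 0.10 (median -0.01), against -0.19 to 0.23 for 72 other pairs. The labels do not say what a replicate number marks, and these correlations cannot settle whether same-numbered mice shared a litter, batch or day. With the replicate block, 1 gene was called for BACHD under the control virus, 133 for the averaged Foxp2 virus and 0 receptors in any comparison. Depth limits Htr6, Htr1b, Oprm1, Chrm2 and Oprk1 most, where counting error alone gives a coefficient of variation of 16.2% to 23.1%.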
